A study of Mus musculus with 6 samples.

Results

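Ion channel genes of excitable membranes were represented by 89 gene regions of 87 genes, out of 10021 regions with at least 3 measured cytosines. The regions came from a reduced representation bisulfite sequencing (RRBS) table of mouse quadriceps muscle, in which each region spans 3000 bp and is keyed by a RefSeq transcript. Members were the regions whose transcript carries a symbol of the potassium (Kcn), sodium (Scn), calcium (Cacn) and ClC chloride (Clcn) channels, the TRP channels, the nicotinic acetylcholine receptor subunits (Chrn), the ryanodine receptors (Ryr) or the inositol trisphosphate receptors (Itpr), leaving out Chrna1. The rule uses symbols and the number of cytosines, not methylation levels. The symbol rule also took in Trpc4ap, which encodes a protein that associates with TRP channels and is not itself a channel. Another 10 regions that match the symbols held fewer than 3 cytosines and were not tested.

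The study compared C57BL/6 mice that were trained on a motorized treadmill for 4 weeks (exercised, 3 samples) with untrained mice (sedentary, 3 samples, also called controls below), and asked which DNA methylation differs after training. Quadriceps muscle was the source of DNA, isolated 3 hours after training ended. The sources used here do not give age, sex or the number of animals behind a sample, so the p-values measure only the spread between these samples. RRBS reads cytosines in DNA cut at CpG-containing restriction sites: bisulfite turns an unmethylated cytosine into T, and the methylated share of reads at a cytosine is its methylation level. For a gene region, the methylated share of all its reads was taken as the level. The muscle was analysed whole, so that a change within muscle fibres and a change in the share of other cells cannot be told apart.

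Opening of these channels moves ions across a membrane and so carries the electrical signal of nerve and muscle. In skeletal muscle, acetylcholine opens the nicotinic receptor at the endplate, sodium channels carry the action potential along the fibre, and the voltage-gated calcium channel of the transverse tubule opens the ryanodine receptor of the sarcoplasmic reticulum, which releases the calcium that starts contraction. Potassium and chloride channels bring the membrane back to rest. Promoters rich in CpG are unmethylated in most tissues, also where the gene is silent, whereas CpG-poor promoters are often methylated where they are not used.

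Promoter sequences of 4 member genes show the range of CpG density against which the methylation levels below are set. Each is the 250 bases before a RefSeq start site (build GRCm38.p6), written 5′ to 3′ on the strand of the gene, with every CG in capitals. The deposited table uses mm9, so the coordinates of these sequences are not those of the measured cytosines. Cacnb1, the beta subunit of the muscle calcium channel, has a CpG-dense start with 26 CG (chr11:98022628-98022877, minus strand) and a second start with 1 CG (chr11:98018373-98018622, minus strand). The start of Chrnb1, the beta subunit of the muscle acetylcholine receptor, has 14 CG (chr11:69795938-69796187, minus strand). The start of Kcnc1, a fast voltage-gated potassium channel, has 30 CG (chr7:46396218-46396467, plus strand), and that of Trpm7, a magnesium- and calcium-permeable channel fused to a kinase, has 26 CG (chr2:126876262-126876511, minus strand).
Cacnb1, CpG-dense start: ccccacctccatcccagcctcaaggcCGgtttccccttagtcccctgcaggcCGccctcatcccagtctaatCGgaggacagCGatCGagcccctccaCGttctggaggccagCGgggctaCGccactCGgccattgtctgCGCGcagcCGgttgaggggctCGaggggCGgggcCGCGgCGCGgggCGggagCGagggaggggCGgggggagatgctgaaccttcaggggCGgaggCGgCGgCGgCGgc
Cacnb1, CpG-poor start: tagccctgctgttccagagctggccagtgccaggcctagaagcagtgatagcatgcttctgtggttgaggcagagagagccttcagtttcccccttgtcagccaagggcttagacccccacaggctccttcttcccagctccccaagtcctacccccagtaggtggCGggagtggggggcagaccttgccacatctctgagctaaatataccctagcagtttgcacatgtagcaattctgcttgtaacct
Chrnb1: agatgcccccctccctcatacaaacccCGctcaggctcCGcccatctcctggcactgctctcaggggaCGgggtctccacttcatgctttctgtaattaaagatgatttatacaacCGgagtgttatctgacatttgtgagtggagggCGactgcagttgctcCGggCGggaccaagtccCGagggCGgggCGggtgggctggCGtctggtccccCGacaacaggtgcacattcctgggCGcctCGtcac
Kcnc1: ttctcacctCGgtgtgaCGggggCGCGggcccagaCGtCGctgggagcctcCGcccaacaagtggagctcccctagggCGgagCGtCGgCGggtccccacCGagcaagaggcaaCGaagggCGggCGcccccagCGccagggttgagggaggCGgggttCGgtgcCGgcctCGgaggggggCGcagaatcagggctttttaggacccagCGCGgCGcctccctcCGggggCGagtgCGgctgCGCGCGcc
Trpm7: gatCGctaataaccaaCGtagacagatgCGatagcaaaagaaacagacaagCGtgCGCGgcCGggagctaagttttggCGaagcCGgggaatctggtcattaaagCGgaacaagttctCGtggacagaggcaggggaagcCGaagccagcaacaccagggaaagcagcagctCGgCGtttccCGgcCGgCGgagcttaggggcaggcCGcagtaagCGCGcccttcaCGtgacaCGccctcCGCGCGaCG

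Sedentary sample 3 was the shallowest library, with a summed coverage of 9153526, and sedentary sample 2 the deepest, with 18656340. The channel regions held 93785 to 190359 of these calls. In the channel regions the median coverage of a cytosine was 28 reads in sedentary sample 3 and 45 to 60 in the other samples. Intervals given for single samples are 95% Wilson intervals and cover counting error only, since no molecular identifiers are named. Of 18 skeletal muscle marker genes, 3 were measured (Acta1, Des and Pvalb), at mean levels from 0.37% to 72.3%. Methylation of so few genes does not check the tissue.

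Most channel regions consisted of unmethylated cytosines interrupted by methylated ones. Of 2740 measured cytosines, 1860 (67.9%) had a mean level under 10%. Of the 880 at 10% or more, 690 (78.4%) were stand-alone positions, meaning that the other cytosines of the region within 100 bp, the partner on the opposite strand left out, had a median under 10%. They made up 25.2% of the channel cytosines and 25.4% of all cytosines in the table. Despite the name they can lie side by side. In Cacnb1 the consecutive positions 97883846, 97883847, 97883872 and 97883873 stood at 55.8%, 81.4%, 49.3% and 80.9%, and all were stand-alone. Among the 690 stand-alone positions, 271 were at 90% or more, 129 at 50% to 90% and 290 at 10% to 50%.

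These stand-alone positions differed between the strands of a CpG, where methylation is usually alike on both. Adjacent positions, taken as the strands of 1 CpG, formed 884 pairs in the channel regions. The strands differed by a median of 71 percentage points in the 253 pairs with a stand-alone position and by 1.3 points in the others. In 172 pairs 1 strand was at 90% or more, and its partner had a median of 17.4% (5th to 95th percentile 10.3% to 41.3%). In 0 of the 172 were both strands at 90% or more, against 109 of 17727 such pairs in the whole table. Stand-alone positions entered the level of most regions, so each level is given below also without them. The part of library preparation in this pattern was not tested.

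With all positions, the median level of the 89 regions was 22.9%, and without stand-alone positions it was 3.50% (88 regions with at least 3 cytosines left). The same medians over all gene regions were 22.0% and 2.43%. Without stand-alone positions 64 of the 88 regions (72.7%) were under 10%, 18 lay at 10% to 50% and 6 at 50% or more. The stand-alone definition uses the same cut of 10%, so leaving such positions out brings regions under it in part by construction. The shares describe only the cytosines that remain. Over all gene regions 77.8% were under 10% and 5.03% at 50% or more.

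**Figure D1:**
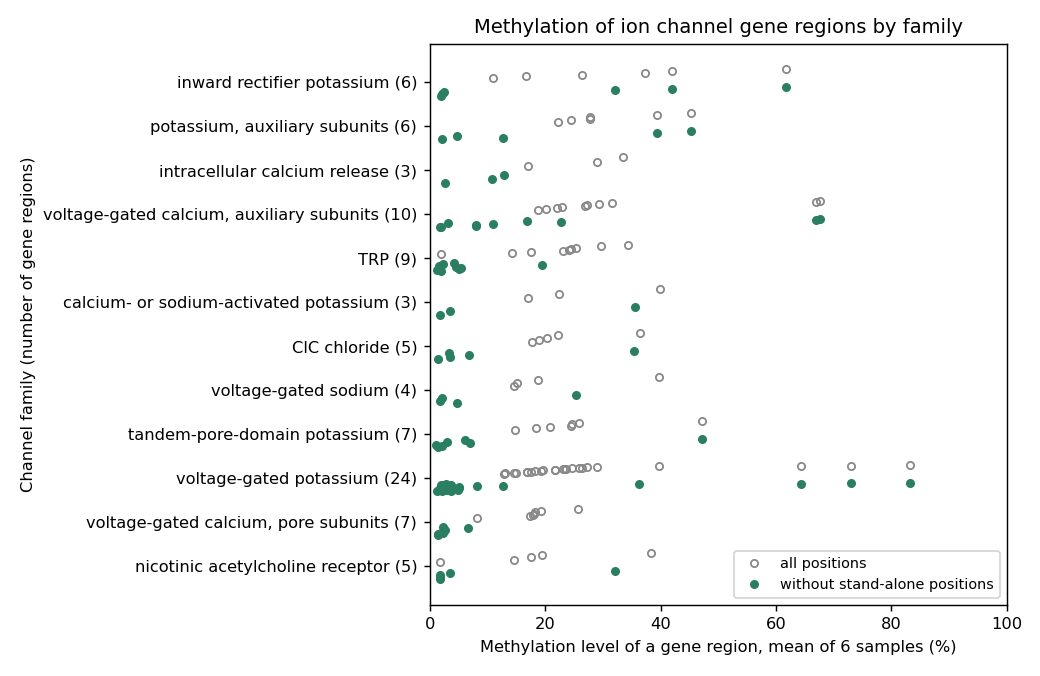
Methylation level of each channel gene region (mean of 6 samples, %) by channel family. Open circles use all positions and filled circles leave out stand-alone positions, whose definition uses a cut of 10%. Without them most regions lie under 10%, and 6 regions remain at 50% or more.

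The pore subunits of voltage-gated calcium channels, which open on depolarisation, were the family with no region above 10% once stand-alone positions were left out, with 7 regions at 1.44% to 6.56%. The cut of 10% is also part of the stand-alone definition, here and for the families below. Their levels with all positions ran from 8.25% to 25.6%. Cacna1d, an L-type channel of pacemaker and endocrine cells, had the lowest of these, at 8.41% ± 0.730 after training and 8.09% ± 0.789 in controls (SD, n = 3 each). Of the 24 voltage-gated potassium channel regions, 19 were under 10% without stand-alone positions. So were 6 of 7 tandem-pore-domain potassium channels, which set the resting potential, and 8 of 9 regions under TRP symbols, Trpc4ap among the 8. Kcnc1, with the CpG-dense promoter printed above, stood at 1.23% without stand-alone positions and with them at 12.3%, 13.6% and 13.7% after training and 12.2%, 13.9% and 12.2% without it. Kcna1, a voltage-gated potassium channel of axons, stood at 12.4% ± 2.18 and 13.2% ± 1.35.

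The 2 lowest regions with all positions rested on few cytosines. Chrnb4, a neuronal acetylcholine receptor subunit, had a mean level of 1.77% and Trpc4ap 1.91%, each over 3 positions. Kcnj12, an inward rectifier that helps to set the resting potential of muscle, had 41 positions, of which 8 were stand-alone. Its levels in the exercised samples were 14.6%, 10.8% and 7.36%, and in the sedentary samples 10.8%, 9.65% and 12.0%. The exercised samples spread more widely than the sedentary ones and enclosed them. Without stand-alone positions Kcnj12 stood at 1.91%.

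The 6 regions at 50% or more were those of Kcnv2, Kcng1, a second region of Cacnb1, Cacng1, a second region of Kcns2 and Kcnj11, and none of them held a stand-alone position by the definition used. Kcnv2, a modulatory potassium channel subunit known from photoreceptors, was methylated on both strands of each of its 3 measured CpGs, with position means of 78.0% or more (chromosome 19, 27397781 to 27397800, mm9). Its levels were 80.6%, 85.9% and 87.7% after training and 96.2%, 83.4% and 65.2% in controls. The sedentary samples enclosed the exercised ones, and sedentary sample 3 rested on 66 reads (interval 53.1% to 75.5%). Kcng1, another modulatory potassium channel subunit, had 4 consecutive cytosines at 85.3% to 97.2% (chromosome 2, 168094688 to 168094728). They stood at 92.4% ± 3.46 after training and 86.7% ± 8.43 in controls, with overlapping groups.

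Kcnj11, Cacng1 and Kcns2 were less uniform. Kcnj11, the pore of the ATP-sensitive potassium channel that links fuel supply to excitability in muscle and pancreatic beta cells, stood at 61.2% ± 2.21 after training and 62.4% ± 7.90 in controls over 9 positions. Of these, 4 were above 90% and 5 between 25.7% and 47.6%, and at 53355182 and 53355183 on chromosome 7 the strands of 1 CpG stood at 33.7% and 93.6%. Kcns2, a modulatory potassium channel subunit, had 2 regions that overlap by 2306 bp and list different cytosines. The first (chromosome 15, 34765110 to 34768109) stood at 3.65% without stand-alone positions. The second held 6 positions, from 34768461 to 34768539 and outside the first region, at 65.4% ± 8.28 after training and 63.4% ± 12.7 in controls.

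**Figure D2:**
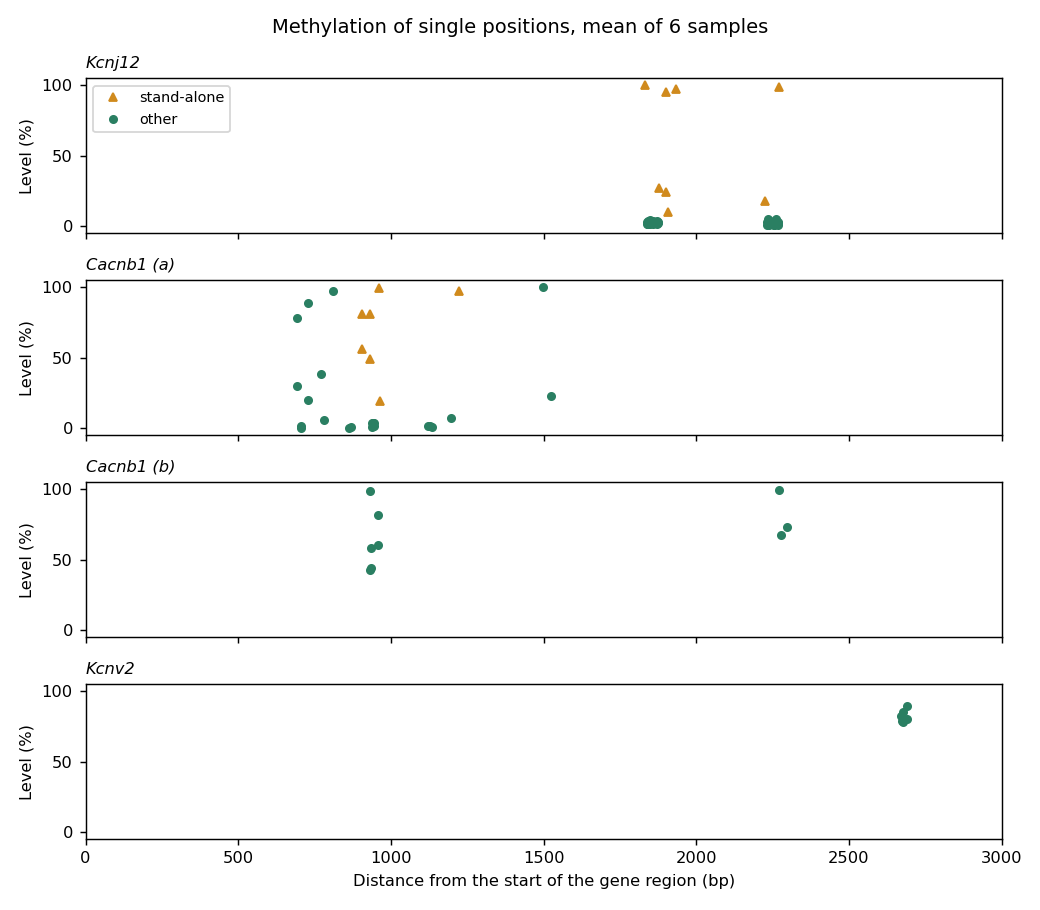
Mean methylation level of single cytosines (%, 6 samples) by distance from the start of the gene region (bp) for Kcnj12, the Cacnb1 regions from 97882942 (a) and from 97878687 (b) and Kcnv2. Triangles are stand-alone positions; Kcnj12 lies near 0 between them, and the 6 Kcnv2 cytosines lie at 78.0% or more.

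Cacnb1 had 2 measured regions that differed in level in every sample. Their starts in mm9 lie 4255 bp apart, as do the 2 RefSeq start sites printed above, and both regions are on chromosome 11. The one from 97882942 to 97885941 stood at 34.3%, 28.5% and 32.3% after training and 36.5%, 29.3% and 28.7% in controls over 30 positions. The one from 97878687 to 97881686 stood at 71.6%, 67.5% and 67.9% after training and 52.8%, 71.3% and 75.2% in controls over 9 positions. All 6 samples were higher in the second region, a comparison made after their values were seen. Without stand-alone positions the first region stood at 16.8%, and its CpGs whose strands agree within 20 points stood at 1.86% over 8 of the 30 positions. In the second region only the CpG at 97879622 and 97879623 had strands that agree so, at 44.2% and 58%. That is too few for a level, so the regions cannot be compared in this way. Neither region differed between the groups beyond its spread (edgeR unadjusted p = 0.956 and 0.496).

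Some channel regions held stretches of methylated cytosines. Runs of at least 4 consecutive cytosines at 10% or more, none stand-alone and with gaps of at most 100 bp, numbered 14 in 13 genes and covered 77 positions. Of the 14, 9 lay in a region that also held a cytosine under 10%, and 5 in a region with none. A run of 4 in Kcnh2, the channel of the rapid delayed-rectifier current of the heart, stood at 95.3% ± 3.52 and 92.7% ± 6.34 (chromosome 5, 23856493 to 23856524). Chrnb1 had neighbouring runs of 5 and 4 cytosines (chromosome 11, 69608658 to 69608711 and 69608718 to 69608723). The first stood at 44.5% ± 8.61 and 47.1% ± 4.60, and the second at 54.3%, 48.9% and 28.8% against 28.7%, 32.8% and 47.7%. Neither was uniform, with position means from 13.5% to 97.1% in the first and from 12.7% to 100% in the second. In the second, 69608719 stood at 91.7% in exercised sample 1, on 24 reads, and at 12.5% or less in the other samples. In 0 of the 14 runs were the groups separate. The groups were separate in 7.25% of all gene regions, and no share over runs outside the channel regions is given here. The count therefore says nothing particular to these runs.

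RefSeq promoters matched 66 of the 87 genes, and 48 of these had 1 start and 1 measured region. The 27 with at least 15 CG in the 250 bases had a median level of 18.1% with all positions (13.0% to 29.3%) and 2.26% without stand-alone positions. The 21 with fewer had medians of 29.0% (1.77% to 47.2%) and 8.11%. A methylated cytosine can be set aside as stand-alone only where it has neighbours within 100 bp, which CpG-dense regions have more of. At least 15 CG occurred in 56.2% of the 48 promoters and in 27.3% of the 32851 promoters of the table. The 48 belong to genes with at least 3 measured cytosines and the 32851 were not selected in that way, so the shares are not of like genes. The sequence CCGG, which reads the same on both strands and contains a CG, occurred in 79.2% of the 48 and in 47.1% of all. This is a description across genes, and a start site need not lie in the measured region.

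No channel region passed the test for a difference between exercised and sedentary samples. In the quasi-likelihood test of edgeR, fitted on all gene regions, 0 of the 89 regions had a Benjamini-Hochberg adjusted p under 0.05 (background 0% of 10021) and each had an adjusted p of 1. At an unadjusted p under 0.05 there were 2, both higher in exercised samples, against a background of 2.52% (1.56% higher and 0.968% lower), and limma also gave 0 adjusted and 2 unadjusted. The groups did not overlap in 4 regions, 3 higher and 1 lower, against a background of 7.25% (4.91% higher and 2.35% lower). The difference was under 2 points in 66 regions (background 7492 of 10021) and over 5 points in 2, where the background for over 5 points was 4.19%. Standard errors of the difference ranged from 0.348 to 9.26 points with a median of 1.41. The difference exceeded 2 standard errors in 7 regions, none of which passed the adjusted threshold. No background share is given for that count, so it says nothing particular to channels.

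Small differences leaned to higher levels in exercised samples, in channel regions as in all regions. Of the 89 regions 53 were higher and 36 lower, or 59.6% higher against a background of 61.0%, with a median difference of 0.187 points against 0.390. Without exercised sample 1, 40 regions were higher and 49 lower, and the median was -0.233 points. That sample was the highest of the 6 in 28 regions, and exercised sample 3 was the highest in 0. Without exercised sample 3 the median was 0.607 points, without exercised sample 2 it was 0.0410 and without sedentary sample 2 it was 0.0246. The median was also higher without sedentary sample 1, at 0.588 points, and it was 0.134 without sedentary sample 3.

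**Figure D3:**
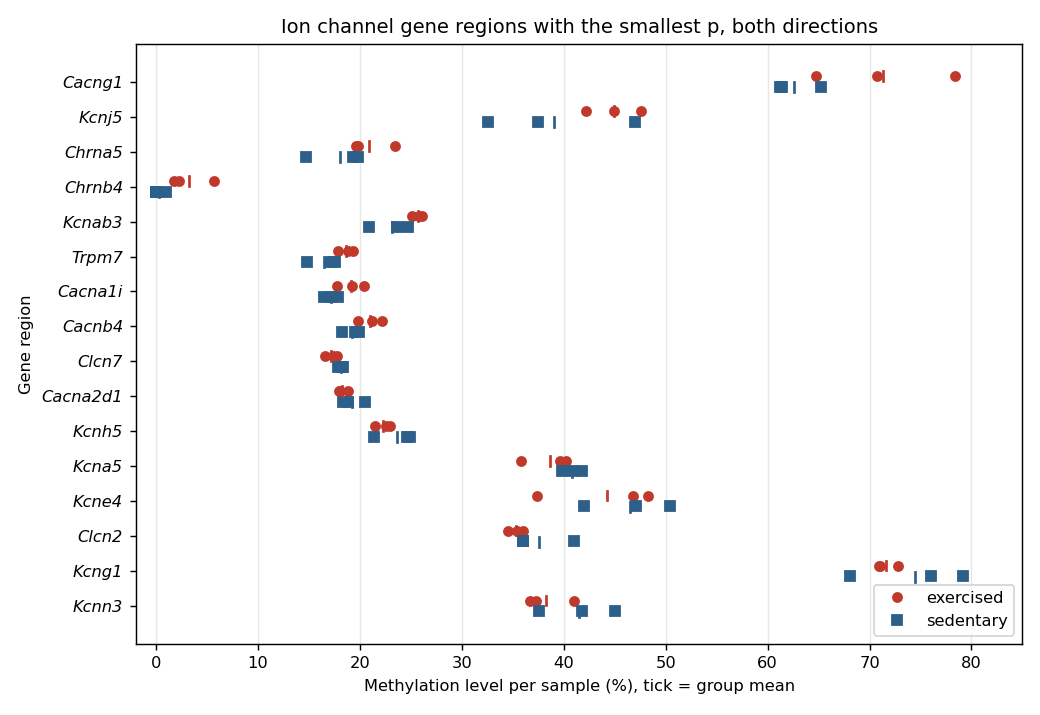
Methylation level per sample (%) of the 16 channel regions with the smallest p, 8 per direction. Circles are exercised and squares sedentary samples, and ticks are group means; the groups are separate for Chrnb4, Trpm7, Kcnab3 and Clcn7, and overlap for the others.

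Among acetylcholine receptor subunits 4 of 5 regions were higher in exercised samples (background 61.0%), with differences from -0.482 to 2.97 points. Chrnb4 had the smallest p of all channel regions (chromosome 9, 54895352 to 54898351). It stood at 5.66%, 1.79% and 2.22% after training and 0%, 0.935% and 0% in controls. All exercised samples were higher, and the difference was 2.91 points (SE 1.26, edgeR unadjusted p = 0.0328, adjusted p = 1). The 3 positions had 23.5 reads each on average. Chrna5, a neighbouring neuronal subunit, stood at 23.4%, 19.8% and 19.6% against 14.7%, 19.8% and 19.3%. The groups overlapped, and its difference of 2.97 points turned to -0.841 without stand-alone positions. Chrnb1, the muscle subunit, stood at 37.6%, 44.4% and 36.3% after training and 33.6%, 36.7% and 41.1% in controls, a difference of 2.29 points (SE 3.33, unadjusted p = 0.350).

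The calcium channel family held the largest difference among the channels. Cacng1, the gamma subunit of the skeletal muscle calcium channel (chromosome 11, 107576791 to 107579790), stood at 78.4%, 70.7% and 64.7% after training and 65.2%, 61.4% and 61.2% in controls. The lowest exercised sample lay just under the highest sedentary one, and the difference was 8.67 points (SE 4.18, edgeR unadjusted p = 0.0482, adjusted p = 1). The region had 4 positions, of which 3 differed by under 1 point. The remaining one, at 107578569, stood at 74.0%, 38.1% and 35.3% after training and 16.1%, 21.6% and 5.71% in controls, at 35 to 63 reads per sample. At this cytosine the groups were separate (difference 34.7 points, edgeR unadjusted p = 0.0184, adjusted p = 0.841), and it was singled out after its values were seen. The next measured cytosine, at 107578601, was at 100% in all 6 samples.

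Other calcium channel genes differed by less. Cacna1i, a T-type channel that opens near the resting potential, stood at 20.4%, 19.2% and 17.7% against 17.8%, 17.2% and 16.5%, overlapping by a narrow margin (difference 1.89 points, SE 0.864, unadjusted p = 0.126). Without its 12 stand-alone positions it stood at 3.24% ± 0.985 after training and 1.28% ± 0.299 in controls (edgeR unadjusted p = 0.0108, adjusted p = 1). The background at that threshold without stand-alone positions was 4.57%, and 2 of 88 channel regions passed it. Over CpGs whose strands agree within 20 points, a setting chosen after the data were seen, 3 of 63 channel regions passed it against a background of 4.48%, Cacna1i among them (unadjusted p = 0.0414). Cacnb4, a beta subunit of neuronal channels, stood at 22.2%, 21.2% and 19.8% against 19.5%, 18.2% and 19.9%. Cacna2d1, the auxiliary subunit that binds gabapentin, stood at 18.2% ± 0.487 against 19.2% ± 1.12 (SE of the difference 0.704). With its cytosines counted equally, a measure added after the data were seen, the samples stood at 12.3%, 12.5% and 13.8% against 17.3%, 14.8% and 17.5%. That difference was -3.66 points, and no test was run on this measure. At a coverage of at least 20 the difference was 0.423 points.

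Among potassium channel genes both directions occurred. Kcnab3, a beta subunit of voltage-gated potassium channels, stood at 25.8%, 26.1% and 25.1% after training and 23.6%, 20.9% and 24.7% in controls, so that the groups were separate (difference 2.62 points, SE 1.16, unadjusted p = 0.103). Without its 5 stand-alone positions the difference was -0.282 points. Kcnj5, a G-protein-gated inward rectifier best known in the heart, stood at 47.6%, 42.2% and 44.9% against 32.6%, 47.0% and 37.5%, overlapping (difference 5.87 points, SE 4.50, unadjusted p = 0.179). Of regions lower in exercised samples, Kcng1 differed by -2.89 points (SE 3.36), Kcnn3, a small-conductance calcium-activated channel, by -3.12 (SE 2.53), Kcne4 by -2.32 (SE 4.19), Kcna5 by -2.22 and Kcnh5 by -1.29. The unadjusted p of these 5 regions was 0.205 or more. With cytosines counted equally Kcng1 turned to 2.09 points, Kcne4 to 0.611 and Kcnn3 to -0.392. Without sedentary sample 1 Kcng1 stood at -0.503 and Kcnn3 at -1.35 points, without sedentary sample 3 Kcng1 stood at -6.07 (edgeR unadjusted p = 0.0357), and without exercised sample 1 Kcna5 stood at -0.861. Kcne3, a beta subunit expressed in muscle, differed by 2.62 points (SE 3.04) and Kcnma1, the large-conductance calcium-activated channel, by -0.516 (SE 1.22).

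Regions under TRP symbols were higher in exercised samples in 7 of 9 cases (background 61.0%), with a median difference of 0.806 points. The 9 include Trpc4ap, which is not a channel and whose own difference, over 3 positions, is that median. Trpm7 stood at 19.3%, 18.8% and 17.8% after training and 14.8%, 17.6% and 17.2% in controls over 65 positions. The groups were separate by a narrow margin (difference 2.11 points, SE 0.963, unadjusted p = 0.0838), and without its 14 stand-alone positions the difference was 0.971 points. Trpc1, a channel proposed in stretch responses of muscle, stood at 24.4% ± 1.26 against 24.4% ± 1.58. Trpv4, a channel opened by osmotic and mechanical stimuli, varied most within the groups among these, at 37.2%, 24.1% and 15.7% after training and 29.1%, 17.9% and 27.6% in controls. The spread of its reads over the cytosines differed between samples as well. Its 3 cytosines at 10% or more that were not stand-alone held 290 of 726, 169 of 582 and 96 of 686 reads in exercised samples 1 to 3. In sedentary samples 1 to 3 they held 130 of 364, 188 of 1088 and 67 of 304. Its stand-alone cytosine, at 115108334 and a mean level of 87.0%, held 50 and 57 reads in exercised samples 1 and 3. The part of the reads in the spread of levels was not tested. With each of the 10 cytosines counted equally, a measure added after the data were seen, the samples stood at 32.4%, 24.6% and 25.6% against 27.8%, 25.7% and 33.2%. Its cytosines at 115107716 and 115107731 on chromosome 5 ranged over the samples from 28.1% to 82.6% and from 18.2% to 63.6%.

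Of the chloride channels 4 of 5 regions were lower in exercised samples, where 3904 of all 10021 regions were lower. Among the 4, Clcn4 differed by only -0.142 points (SE 0.635) and Clcn3 by -0.0855 (SE 0.875). Clcn7, the lysosomal chloride-proton exchanger, stood at 17.7%, 17.4% and 16.6% after training and 18.3%, 17.8% and 18.2% in controls. The groups were separate with a gap of a small fraction of a point, and the difference was -0.859 points (SE 0.348, edgeR unadjusted p = 0.418). Clcn2, a chloride channel that opens on hyperpolarisation, differed by -2.33 points (SE 1.73), and by -0.651 without sedentary sample 3. Clcn5 on the X chromosome, an endosomal exchanger, ranged from 11.1% in exercised sample 3 to 28.8% in exercised sample 1, with sedentary samples at 18.1%, 14.0% and 22.3%. With its cytosines counted equally the Clcn5 samples ranged from 14.6% to 21.4%, and its difference of 1.71 points turned to -1.8. Counted in that way Clcn3 stood at 0.0902, Clcn4 at 0.157, Clcn2 at -0.545 and Clcn7 at -2.18 points. The 4 sodium channel regions differed by -1.01 to 2.18 points and the 3 calcium release channel regions by 0.416 to 2.49 points. Ryr2, the cardiac ryanodine receptor, stood at 29.2% ± 1.59 against 28.8% ± 1.64. Itpr1 stood at 34.4% ± 6.19 against 32.7% ± 0.720, and Itpr3 at 18.2% ± 2.33 against 15.7% ± 1.89. Without stand-alone positions Ryr2 differed by -1.84 points, Itpr1 by 4.04 and Itpr3 by 1. With cytosines counted equally Ryr2 differed by 0.403 points, Itpr1 by -2.34 and Itpr3 by 2.11.

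**Figure D4:**
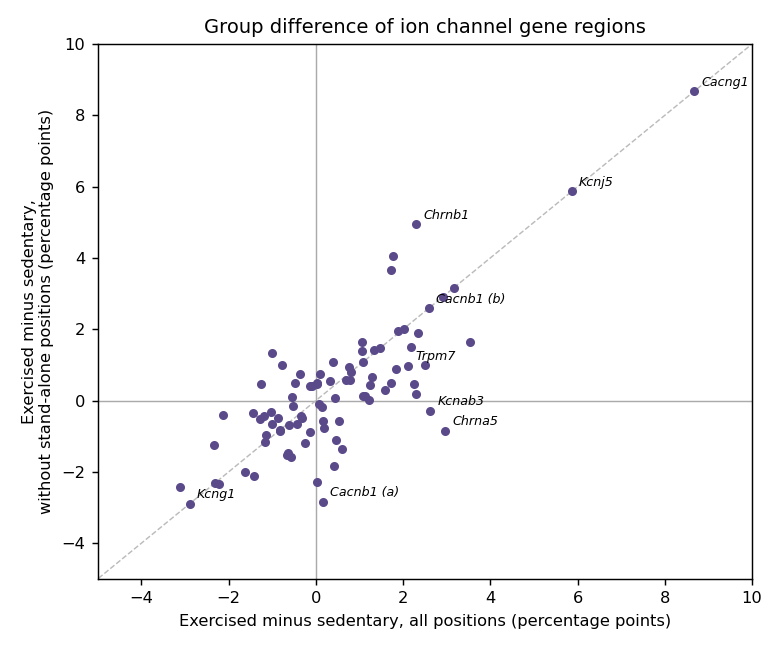
Exercised minus sedentary level (percentage points) of each channel region with all positions (horizontal) and without stand-alone positions (vertical), with the line of equal values dashed. Cacng1, Kcnj5 and Kcng1 lie on the line because they hold no stand-alone position, while Kcnab3 and Chrna5 fall below 0 without them.

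Of 22 channel genes best known in skeletal muscle, 11 were among the tested regions. Ryr1, Cacna1s, Scn4a and Clcn1, which carry excitation and calcium release in the fibre, were not among them. Around them, a list of 59 other genes of excitation-contraction coupling and the endplate gave 40 tested regions of 38 genes. Of these 24 were higher and 16 lower, with a median difference of 0.177 points, and 0 passed the adjusted threshold (edgeR, 1 at an unadjusted p under 0.05, background 2.52%). Jph4, a junctophilin that ties the plasma membrane to the reticulum in neurons, stood at 62.7% ± 3.26 after training and 71.2% ± 5.43 in controls (difference -8.45 points, SE 3.66, edgeR unadjusted p = 0.0252, adjusted p = 1) over 3 positions. The groups overlapped for Jph4.

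Single cytosines gave no call either. Of 2594 tested cytosines in channel regions, 0 had an adjusted p under 0.05 (edgeR, background 0% of 253960), and limma gave 0, with 104 at an unadjusted p under 0.05. At an unadjusted p under 0.05 there were 129 (4.97%), 76 higher and 53 lower, against a background of 4.90% (2.82% higher and 2.08% lower). Of these, 101 had a mean level under 10% and 22 were stand-alone positions. The authors' deposited table lists 78 channel cytosines at an unadjusted p under 0.05, where its background was 3.13%.

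The cytosines with the smallest p rested on 1 or a few samples. In Kcnab3, position 69140241 on chromosome 11 stood at 28.9%, 0% and 35.7% in exercised samples and at 0% in all 3 sedentary ones, where the 10 reads of sedentary sample 3 allow up to 27.8%. In Ryr2, position 12199224 on chromosome 13 was at 100% in all exercised and at 78.6%, 90.7% and 100% in sedentary samples. In Kcne1l, an auxiliary potassium channel subunit on the X chromosome, position 138740680 stood at 61.0% in exercised sample 1 (interval 45.7% to 74.3%) and at 16.7% and 0% in the others, against 4.55%, 0% and 0%. The lower ones were position 119057908 of Cacna1c on chromosome 6, the cardiac L-type channel, with 16.2% and 6.25% in sedentary samples 2 and 3 and 0% in all exercised samples, position 107262646 of Kcnc4 on chromosome 3, with 16.5% in sedentary sample 3, and position 30890579 of Kcnk3 on chromosome 5, with 14.0% in sedentary sample 1. Of these 6 cytosines the groups were separate only for that of Kcnc4. The adjusted p of each was 0.841 (edgeR), and the authors' deposited table classes all 6 as insignificant.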

How the data were processed

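Methylation was measured by RRBS in 3 exercised and 3 sedentary samples. Per the submitters' processing notes, the tools included Bismark 0.7.7 and Bowtie 0.12.9 as well as cutadapt 1.0 and Trim Galore 0.2.5. The build was mm9, and no settings are given in the sources. The authors deposited 1 table with the methylated fraction of each cytosine and the count of reads covering it, at least 10 in every sample at all 268725 listed positions. They also deposited a difference of group mean fractions, which is a signed score, and an unadjusted p-value per position. The fraction times the coverage was whole within 0.00236 of a read, and methylated and unmethylated reads were taken from it. Strand-adjacent positions were kept apart. Symbols were matched for 10655 of 10755 transcripts through a RefSeq table of GRCm38.p6, used for names only.

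Reads were summed per gene region with at least 3 positions. For differences, edgeR 4.0.16 in R 4.3.3 was used with its quasi-likelihood method on both kinds of read count. Each sample had its own term and the group acted on the methylated reads, with 1 common dispersion, no trend and Benjamini-Hochberg adjustment over all 10021 regions or all 253960 positions, at 0.05. Units without both methylated and unmethylated reads were left out. The test was run on simulated counts, where it missed most of the changes put in. A count of 0 calls does not show equal methylation. limma 3.58.1 used log2((methylated + 2)/(unmethylated + 2)), computed here from the deposited values. Python 3.11.15 with numpy, pandas and matplotlib made summaries and figures. Named regions were the 8 with the smallest p in each direction, the 6 highest, 6 lowest and 6 most variable, channels best known in muscle, 3 cytosines per direction and 2 of the other listed genes. The members and lists were chosen with earlier results of these data known. The settings varied were the left-out sample, a replicate block, a coverage of 20, removal of the deepest positions, 5 positions, no stand-alone positions, summed strands and limma. CpGs whose strands agree, and equal weight for each position of a named region, were added after the data were seen. Results for some items chosen by this rule are not reported here.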

Additional observations from a re-analysis of the deposited data

How the results depend on the processing

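The count of 0 channel regions and of 0 channel cytosines past the adjusted threshold was the same under every alternative run. Counts at an unadjusted p under 0.05 were small and moved. From 2 regions, leaving out 1 sample gave 0 to 4, with 4 without exercised sample 3 1 without exercised sample 2 or sedentary sample 3 and 0 without exercised sample 1 or sedentary sample 1, and both a coverage of at least 20 and at least 5 positions per region gave 0. From 129 cytosines, leaving out 1 sample gave 85 (without exercised sample 2) to 130, and a coverage of at least 20 gave 73 of 1608 tested. With the replicate block the counts were 2 regions and 66 cytosines. Whether samples with the same number are paired is not known. The correlations of their deviations from the group means were 0.019, -0.219 and -0.111, and those of unlike numbers ran from -0.101 to 0.221. With 3 samples per group these values cannot settle whether like-numbered samples share a batch.

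The median difference moved from 0.187 points to 0.125 without stand-alone positions, 0.130 as a mean of position levels, 0.140 at a coverage of at least 20 and -0.0339 over the 63 regions with CpGs whose strands agree, and leaving out 1 sample gave -0.233 to 0.607. Of the 16 regions with the smallest p, 5 changed direction in at least 1 alternative: Kcnab3 (-0.282 points) and Chrna5 (-0.841) without stand-alone positions, Kcne4 (1.07, with -4.56 without sedentary sample 1) without exercised sample 1 and Cacna2d1 (0.423) at a coverage of at least 20. With each position counted equally, added after the data were seen, Kcng1 (2.09) and Kcne4 (0.611) changed direction. Cacna2d1 counted in that way stood at -3.66 points. The causes were not tested. The Cacng1 difference ranged from 5.09 to 12.0 points, Chrnb4 from 1.69 to 3.63 Kcnj5 from 2.64 to 9.85, Kcnn3 from -5.07 to -0.392, Kcna5 from -5.40 to -0.861 and Clcn2 from -3.17 to -0.545. The lower coverage of sedentary sample 3 limits the precision of its levels.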

Other observations

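Channel regions with 1 or 2 cytosines were left out of the tests and add a few levels. Chrnd, the delta subunit of the muscle acetylcholine receptor, had 2 cytosines on chromosome 1 (89087933 and 89087939), at 78.9% ± 0.199 and 76.0% ± 7.93 in exercised and 78.9% ± 12.9 and 81.7% ± 13.0 in sedentary samples (SD, n = 3 each). Kcnmb1, the beta subunit of the large-conductance potassium channel of smooth muscle, had 1, at 100% in all exercised samples and 92.9%, 90.2% and 100% in sedentary ones. Kcne2, a beta subunit known from heart and stomach, had 1 cytosine near full methylation and 1 at 87.9%, 59.5% and 61.9% in exercised and 47.9%, 73.2% and 33.3% in sedentary samples. Both cytosines of Itpr2 were at 12.1% or less in every sample.

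The stand-alone cytosines of 10% to 50% in channel regions had a mean level of 26.2%, 19.8% and 21.6% in exercised and 22.1%, 26.1% and 21.2% in sedentary samples. Methylated cytosines that were not stand-alone averaged 59.8% ± 1.67 in exercised and 58.8% ± 0.291 in sedentary samples. In the whole table, 26688 stand-alone cytosines of 10% to 50% averaged 28.1%, 19.5% and 22.0% in exercised and 22.6%, 26.8% and 19.6% in sedentary samples.

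Over CpGs whose strands agree, 3 of 63 channel regions had an unadjusted p under 0.05 (edgeR, background 4.48%, adjusted p of each 1). They were Cacna1i, the first Kcns2 region and Kcnd2, a channel of the transient outward current, which stood at 14.3% ± 3.17 after training and 22.5% ± 1.66 in controls over 10 positions. With all positions the Kcnd2 difference was -1.19 points.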
